A study of Mus musculus with 6 samples.

Results

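The genes described here are 10 transcripts of the lysosomal protease system of the mouse aorta: 8 cathepsins (Ctsb, Ctsc, Ctsd, Ctsh, Ctsk, Ctsl, Ctss and Ctsz), the asparaginyl protease legumain (Lgmn) and the secreted cathepsin inhibitor cystatin C (Cst3). They were chosen by symbol, and each matched 1 of the 55401 Ensembl genes in the deposited table of raw read counts. All 10 passed the filter on low counts and are among the 19833 genes tested. The ApoE-/- group held 3 aorta samples from mice without apolipoprotein E. The IL16-/-ApoE-/- group, called double mutants below, held 3 aorta samples from mice that lacked interleukin-16 as well, so the loss of ApoE was shared by all 6 samples. Every mouse had a high-fat diet for 24 weeks from the age of 8 weeks. The comparison asks what interleukin-16 contributes to gene expression in the aorta of such mice. Strain, sex, the deleted parts of the genes and whether each sample was 1 animal or a pool were not given in the sources used here. The p-values therefore reflect the spread among these libraries alone, and that spread may be technical.

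Cathepsins are proteases that are made as inactive precursors, sorted to lysosomes by mannose 6-phosphate receptors and activated at acid pH. Most are cysteine proteases, and cathepsin D is an aspartic protease. In atherosclerotic arteries macrophages, smooth muscle cells and endothelial cells can also secrete them, and cathepsins K, L and S are known for cleaving elastin and collagen in the wall. Cystatin C, made by nearly all cells, binds the active site of the cysteine cathepsins outside the cell.

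Il16 itself was at 28.3, 28.7 and 15.1 CPM (gene counts brought to a common library size with TMM factors) in ApoE-/- 1, 2 and 3, while double mutants 1, 2 and 3 held 7.93, 12.1 and 12.2 CPM. It was lower in every double mutant library (a log2 fold change of -1.16 with an SE of 0.32, n = 3 and 3), and reads of the gene remained in each. Il16 did not pass edgeR's quasi-likelihood test over all genes (adjusted p = 0.163, and 0.0226 to 0.493 over the alternatives). Reads of Apoe were also present in all 6 libraries, at 20.9 to 45.0 CPM in ApoE-/- against 137 to 183 CPM in double mutants (a log2 fold change of 2.34 with an SE of 0.33, adjusted p = 0.0369, and up to 0.196 over the alternatives). Library totals were 65730552 to 85568269 counts for ApoE-/- libraries and 42861980 to 47208779 for double mutants. A member held between 1747 and 291850 counts in a library, so counting error is small beside the spread between libraries. The spread was wider among the ApoE-/- libraries (biological coefficient of variation 0.592) than among the double mutants (0.209). ApoE-/- 1 had the Xist level of a female library (474 CPM, against 0.497 to 6.21 CPM in the other 5) and little of the Y-linked Ddx3y (0.143 CPM). ApoE-/- 2 and 3 held 134 and 136 CPM of Ddx3y, while the double mutants held 70.1 to 75.6 CPM. In the comparison without ApoE-/- 1 all libraries therefore have a male pattern, but Ddx3y is not level between them (-0.89, SE 0.09, adjusted p = 0.00306 in edgeR's quasi-likelihood test).

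Of the 10 genes, 7 were higher in every double mutant library than in any ApoE-/- library: Ctsb, Ctsl, Ctss, Ctsk, Ctsh, Ctsd and Cst3. The groups were separate in this direction in 14.9% of all tested genes, and 26.4% were separate in either direction. Lgmn, Ctsz and Ctsc overlapped between the groups. The log2 fold change was positive for 9 of the 10, with a median of 0.91 against -0.05 over all tested genes. With ApoE-/- 1 left out the median of the 10 was 1.49, and it was 0.87 and 0.50 with ApoE-/- 2 or 3 left out. None of the 10 passed the test over all genes at an adjusted p of 0.05. Of all tested genes 1.20% passed, 1.14% as higher. At an unadjusted p under 0.05 there was 1 of the 10, Ctsl, against 15.9% of all tested genes. Without ApoE-/- 1, 3 of the 10 passed as higher (Ctsz, Ctsk and Ctsb), while 13.1% of all genes tested in that fit passed as higher. In limma-voom 0 of the 10 passed, and 1.95% of all genes passed as higher.

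**Figure D1:**
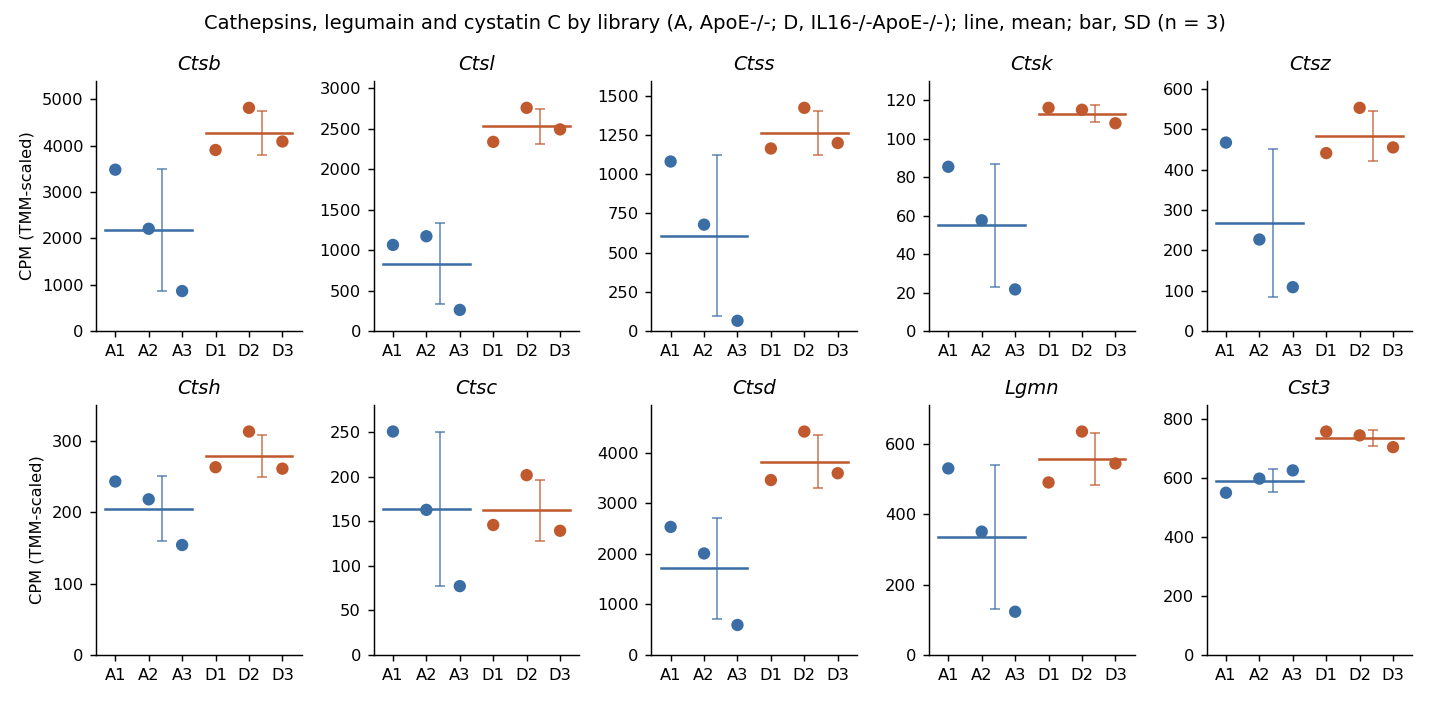
Level of each gene in CPM (TMM-scaled, linear axis from 0) in the 3 ApoE-/- libraries (A1 to A3, blue) and the 3 double mutant libraries (D1 to D3, orange), with the group mean as a line and the SD as a bar. The double mutant libraries sit close together, ApoE-/- 3 is the lowest library in 9 of the 10 panels, and Cst3 is the exception.

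Cathepsin L, a cysteine endopeptidase of lysosomes that also cleaves elastin, differed most. Ctsl (ENSMUSG00000021477, GRCm38 chromosome 13, 64359337 to 64370890, minus strand) stood at 1065, 1172 and 263 CPM in ApoE-/- 1, 2 and 3, while the double mutants held 2337, 2757 and 2491 CPM. The lowest double mutant library was above the highest ApoE-/- library by a wide margin, and ApoE-/- 1 and 2 were alike. The log2 fold change came to 1.60 (SE 0.57, a 3.03-fold difference, n = 3 and 3), with an adjusted p of 0.254 in edgeR's quasi-likelihood test. It was 1.17 (SE 0.27) without ApoE-/- 3 and 1.82 (SE 0.62) without ApoE-/- 1, with adjusted p of 0.149 and 0.0836. DESeq2 (adjusted p = 0.0356) and limma-voom with sample weights (0.0310) called it, in fits that called 6.23% and 9.39% of all genes as higher.

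Cathepsin B, an endopeptidase that also removes dipeptides from the carboxyl end, had the most reads of the family. Ctsb (ENSMUSG00000021939, chromosome 14, 63122462 to 63145923, plus strand) stood at 3483, 2209 and 866 CPM in ApoE-/- 1, 2 and 3, while the double mutants held 3907, 4816 and 4090.5 CPM. ApoE-/- 1 lay just below the double mutants, and ApoE-/- 3 far below every other library. The log2 fold change came to 0.97 (SE 0.52, n = 3 and 3, adjusted p = 0.407 in edgeR's quasi-likelihood test). Without ApoE-/- 1 it was 1.47 (SE 0.41, adjusted p = 0.0463), and without ApoE-/- 3 it was 0.58 (SE 0.34, adjusted p = 0.487).

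Cathepsin S, which stays active at neutral pH, cleaves elastin and trims the invariant chain of MHC class II, varied most among the ApoE-/- libraries. Ctss (ENSMUSG00000038642, chromosome 3, 95526786 to 95556403, plus strand) stood at 1081, 679 and 66.4 CPM in ApoE-/- 1, 2 and 3, a 16.3-fold range. It was at 1164, 1423 and 1199 CPM in the double mutants, a 1.22-fold range. All 3 double mutant libraries were above ApoE-/- 1, but by little. The log2 fold change of 1.05 had an SE of 0.85 (n = 3 and 3, adjusted p = 0.566 in edgeR's quasi-likelihood test), and the fold change was 0.52 (SE 0.31) without ApoE-/- 3.

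Cathepsin K, the strongest collagenase of the family and the main protease of osteoclasts, lies next to Ctss. Ctsk (ENSMUSG00000028111, chromosome 3, 95499256 to 95509362, plus strand) stood at 85.4, 57.6 and 21.7 CPM in ApoE-/- 1, 2 and 3, while the double mutants held 116, 115 and 108 CPM. The double mutant libraries were nearly equal and all above the highest ApoE-/- library. In the fit, the log2 fold change came to 1.04 (SE 0.45, n = 3 and 3, adjusted p = 0.332 in edgeR's quasi-likelihood test), and 1.51 (SE 0.41, adjusted p = 0.0445) without ApoE-/- 1. The neighbours Ctsk and Ctss were not in a fixed ratio. Per kilobase of transcript Ctsk was 0.0708 to 0.0890 of Ctss in 5 libraries and 0.293 of it in ApoE-/- 3.

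Cathepsin Z, a carboxypeptidase, and cathepsin H, an aminopeptidase, trim the ends of peptides. Ctsz (ENSMUSG00000016256, chromosome 2, 174427493 to 174439039, minus strand) stood at 467, 227 and 109 CPM in ApoE-/- 1, 2 and 3, while the double mutants held 441, 553 and 455 CPM. ApoE-/- 1 lay within the double mutant range, and the log2 fold change came to 0.85 (SE 0.51, n = 3 and 3, adjusted p = 0.448 in edgeR's quasi-likelihood test). Without ApoE-/- 1 it was 1.52 (SE 0.33, adjusted p = 0.0224). Ctsh (ENSMUSG00000032359, chromosome 9, 90054152 to 90076089, plus strand) stood at 243, 218 and 154 CPM in ApoE-/-, while the double mutants held 263, 313 and 261 CPM. Its groups were separate but close, with a log2 fold change of 0.44 (SE 0.24, n = 3 and 3, adjusted p = 0.401 in edgeR's quasi-likelihood test).

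Cathepsin C, or dipeptidyl peptidase I, activates the serine proteases of neutrophil, mast cell and cytotoxic granules, and was the only one of the 10 without a positive fold change. Ctsc (ENSMUSG00000030560, chromosome 7, 88278085 to 88310888, plus strand) stood at 251, 163 and 77.3 CPM in ApoE-/- 1, 2 and 3, while the double mutants held 146, 202 and 139.5 CPM. The double mutant libraries lay inside the ApoE-/- range. The fitted log2 fold change was -0.01 (SE 0.42, n = 3 and 3, adjusted p = 0.993 in edgeR's quasi-likelihood test), and its sign changed with the processing, from -0.35 without ApoE-/- 3 to 0.44 without ApoE-/- 1. Ctsc lies 4.53 Mb from Il16, which is on the same chromosome, and Ctsd lies 58.63 Mb from it.

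Cathepsin D, the aspartic protease of lysosomes, was the highest of the family per length of transcript. Ctsd (ENSMUSG00000007891, chromosome 7, 142375911 to 142388038, minus strand) stood at 2533, 2008 and 592 CPM in ApoE-/- 1, 2 and 3, while the double mutants held 3461, 4421 and 3596 CPM. The groups were separate, and ApoE-/- 3 was again far below the rest. Its log2 fold change was 1.16 (SE 0.55, n = 3 and 3, adjusted p = 0.361 in edgeR's quasi-likelihood test), 1.56 (SE 0.52) without ApoE-/- 1 and 0.75 (SE 0.31) without ApoE-/- 3.

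Legumain, which cleaves after asparagine and processes cathepsins B, H and L to their mature forms, overlapped between the groups. Lgmn (ENSMUSG00000021190, chromosome 12, 102394084 to 102439813, minus strand) stood at 531, 351 and 123 CPM in ApoE-/- 1, 2 and 3, while the double mutants held 491, 636 and 545 CPM. In the fit, the log2 fold change came to 0.73 (SE 0.51, n = 3 and 3, adjusted p = 0.506 in edgeR's quasi-likelihood test), and 0.33 (SE 0.28) without ApoE-/- 3.

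Cystatin C was the member that varied least, and it did not follow the proteases. Cst3 (ENSMUSG00000027447, chromosome 2, 148871722 to 148875692, minus strand) stood at 551, 599 and 627 CPM in ApoE-/- 1, 2 and 3, while the double mutants held 759, 746 and 706 CPM. ApoE-/- 3, the lowest library for each of the 9 proteases, held the most Cst3 of its group. The fitted log2 fold change was 0.31 (SE 0.22, a 1.24-fold difference, n = 3 and 3, adjusted p = 0.506 in edgeR's quasi-likelihood test) and stayed between 0.26 and 0.35 over the 15 alternatives.

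**Figure D2:**
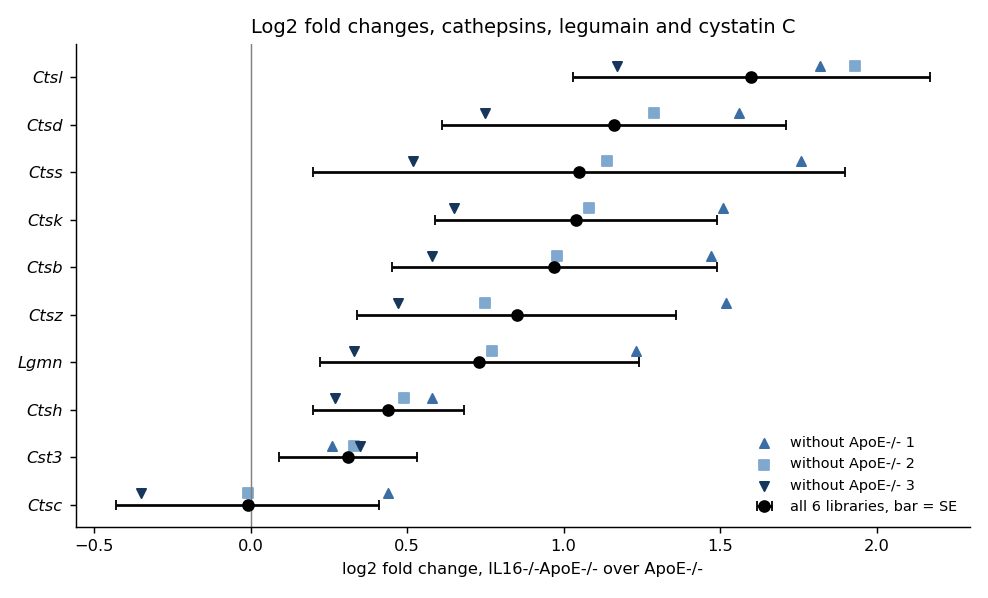
Log2 fold change of each gene, double mutants over ApoE-/-, with all 6 libraries (black, bar = SE) and without each ApoE-/- library in turn (blue symbols). Leaving out ApoE-/- 3 moves every protease to the left and leaving out ApoE-/- 1 moves every protease to the right, while the 3 values of Cst3 stay between 0.26 and 0.35.

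ApoE-/- 3 was the lowest of the 6 libraries for 9 of the 10 genes, against 26.4% of all tested genes. Double mutant 2 was the highest of the 6 for 7 of the 10, against 12.3%. Between ApoE-/- 1 and ApoE-/- 3 the proteases differed by 1.57-fold (Ctsh) to 16.3-fold (Ctss), which is more than the fitted fold between the groups for each of them.

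Macrophages are a main source of cathepsins in the diseased artery, and most of their markers were lowest in ApoE-/- 3, as the proteases were. The summed level of 14 macrophage markers was 6095, 3017 and 629 CPM in ApoE-/- 1, 2 and 3, against 5466, 7676 and 5835 CPM in double mutants, and no marker was at 0 in any library. More than any other marker, Lyz2 made up this sum, with 3561, 1750.1 and 259 CPM in ApoE-/- 1, 2 and 3 and 3527 to 5095 CPM in double mutants. The sum of the other 13 was 2534, 1267 and 371 CPM in ApoE-/- 1, 2 and 3, and the double mutants, at 1939 to 2581 CPM, overlapped with it. Of the 14, 0 passed the test over all genes, 11 had a positive log2 fold change, and the median was 0.66. The groups were separate for 2 of the 14, Cd68 (1.65, SE 0.75, adjusted p = 0.350) and Tyrobp (2.11, SE 0.79, adjusted p = 0.281). Of all tested genes 14.9% were separate in this direction, a share near that of the markers. The colony-stimulating factor receptor Csf1r was at -0.00 (SE 0.61) and Adgre1 at 0.14 (SE 0.83), and the efferocytosis receptor Mertk (-0.34, SE 0.30) and the mannose receptor Mrc1 (-0.58, SE 0.53) were negative. Mertk did not follow the order of the proteases, with 54.7, 120.0 and 115 CPM in ApoE-/- 1, 2 and 3. Summed smooth muscle markers ran the other way, with 4289, 19092 and 27423 CPM in ApoE-/- 1, 2 and 3, against 8613 to 9749 CPM in double mutants. Endothelial markers were separate and higher for 5 of 5 genes, against the same 14.9% of all tested genes. Their sum was 539.6 to 930.3 CPM in ApoE-/-, against 1082 to 1129.5 CPM in double mutants, and 0 passed. Summed adipocyte markers were at 6217, 722 and 816 CPM in ApoE-/- 1, 2 and 3, against 5145 to 5509 CPM in double mutants. Of these 6 markers 1 passed as higher, Lep, against 1.14% of all tested genes. Lep was at 0.871 to 2.05 CPM in ApoE-/- against 18.7 to 22.0 CPM (3.90, SE 0.38). Its adjusted p was 0.0168 in edgeR's quasi-likelihood test, and up to 0.179 over the alternatives. The part of cell makeup in the cathepsin differences was not tested, and in these bulk samples fewer cells of a type and less RNA per cell cannot be told apart.

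Set against the sum of all 14 macrophage markers the groups overlapped for 9 of the 10 genes, but this depended on Lyz2. Per 100 CPM of those markers, Ctsl was at 17.5, 38.8 and 41.7 CPM in ApoE-/- 1, 2 and 3, while the double mutants held 42.7, 35.9 and 42.7 CPM, which overlap. Ctsb was at 57.1, 73.2 and 138 CPM against 62.7 to 71.5 CPM, and Ctss at 17.7, 22.5 and 10.5 CPM against 18.5 to 21.3 CPM. Ctsc was the one gene of the 10 whose groups were separate on this scale, at 4.11, 5.39 and 12.3 CPM in ApoE-/-, while the double mutants held 2.67, 2.63 and 2.39 CPM. Cst3 had the widest range, from 9.04 CPM in ApoE-/- 1 to 99.6 CPM in ApoE-/- 3. With Lyz2 left out of the sum, an alternative chosen after the data were seen, the groups overlapped for 6 of the 10. Ctsl was then at 42.0, 92.5 and 70.8 CPM per 100 CPM in ApoE-/- 1, 2 and 3 against 107 to 122 CPM in double mutants. Ctsd was at most 159 CPM in ApoE-/- against 171 to 178 CPM, and Ctss at 42.7, 53.6 and 17.9 CPM against 55.1 to 60.0 CPM, so that these 3 were separate and higher. Ctsc stayed separate and lower, at 9.89 to 20.8 CPM against 6.86 to 7.81 CPM. These ratios are descriptions and were not tested.

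**Figure D3:**
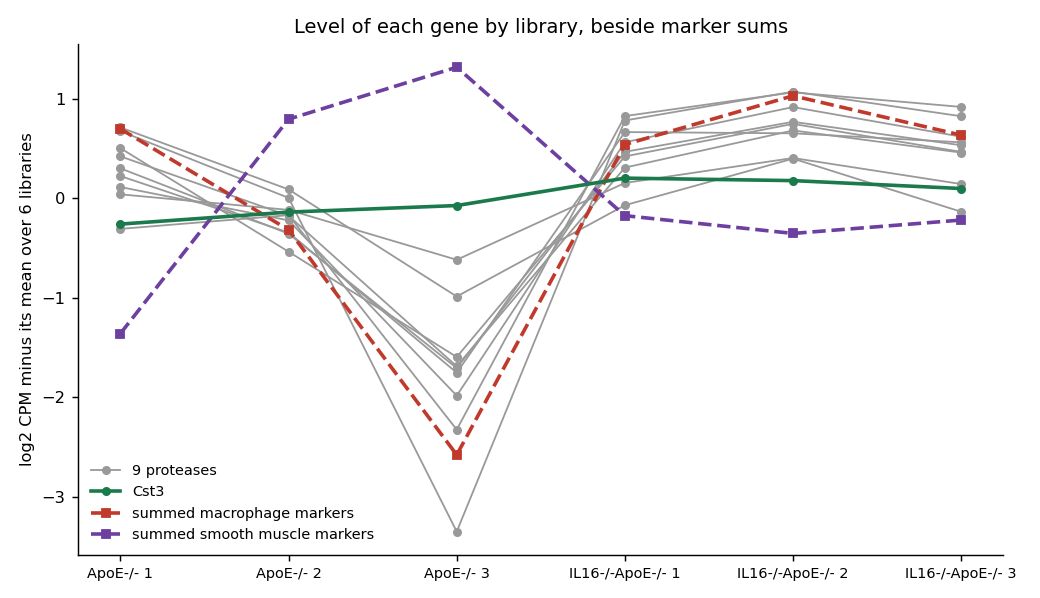
Log2 CPM of each gene minus its mean over the 6 libraries (grey, 9 proteases; green, Cst3), with the summed macrophage markers (red) and smooth muscle markers (purple) treated alike; the lines only join the points of a gene. In ApoE-/- 3 the proteases and the macrophage sum are at their lowest (629 CPM for the sum) and the smooth muscle sum is at its highest (27423 CPM), while Cst3 stays near 0.

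Markers of other tissues were at higher levels in the double mutant libraries. All 6 kidney tubule markers passed as higher in the double mutants by edgeR's quasi-likelihood test, against 1.14% of all tested genes. Their sum was 0.174 to 0.967 CPM in the ApoE-/- libraries, where 4 or 5 of the 6 were at 0, and 460.0 to 511 CPM in the double mutants. Kidney tubules are rich in lysosomes and express cathepsins, legumain and cystatin C. Summed cardiac muscle markers were at 21.8 to 56.9 CPM in ApoE-/-, against 111 to 232 CPM in double mutants. For skeletal muscle markers the sums were 1.26 to 5.88 CPM against 10.5 to 173 CPM. Of these muscle markers only Tnnt2 passed (adjusted p = 0.0420 in edgeR's quasi-likelihood test). The part of kidney and muscle RNA in the differences described here was not tested.

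Per kilobase of transcript, which allows levels of different genes to be compared, the 10 genes were ordered as follows in the double mutants. Ctsd was highest at 1889.8 ± 257 CPM per kilobase (SD, n = 3), followed by Ctsl at 1283 ± 108. Ctss (932 ± 104), Ctsb (901 ± 101) and Cst3 (857 ± 32.4) came next, with overlapping ranges over the libraries. Within each double mutant library Ctss was above Ctsb (859 and 824, 1050.3 and 1015, 885 and 862 CPM per kilobase). Below them were Ctsz (335 ± 42.5) and Lgmn (291 ± 38.2), whose ranges overlapped although Ctsz was above Lgmn within each library, then Ctsh (173 ± 18.1), Ctsk (74.6 ± 2.69) and Ctsc (56.8 ± 12.0). In ApoE-/- the order was Ctsd (845 ± 496), Cst3 (689 ± 44.7), Ctsb (461 ± 276), Ctss (449 ± 377) and Ctsl (423 ± 252), and the ranges of the last 3 overlapped. Ctsz (186 ± 127), Lgmn (175 ± 107), Ctsh (127 ± 28.3), Ctsc (57.2 ± 30.3) and Ctsk (36.3 ± 21.1) followed. Neighbours in this order had overlapping ranges, apart from Ctsh (95.5 to 150.4) and Ctsc (27.1 to 87.7).

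The make-up of the protease transcripts is described here by shares, which are not independent of each other and were not tested. As a share of the summed per-kilobase level of the 9 proteases, Ctsl was 12.8%, 19.0% and 14.3% in ApoE-/- 1, 2 and 3, against 21.8%, 20.9% and 22.3% in double mutants. Ctsc was 2.08%, 1.82% and 2.90% in ApoE-/-, against 0.940%, 1.05% and 0.861% in double mutants. Lgmn was 6.58%, 5.87% and 6.89% against 4.73%, 4.96% and 5.03%, and Ctsh was 3.56%, 4.31% and 10.2% against 3.00%, 2.89% and 2.85%. The groups were separate for these 4 and overlapped for Ctsb, Ctsd, Ctsk, Ctss and Ctsz. Ctsd took a steady 29.6% to 32.6% in all 6 libraries, while Ctss took 18.9%, 16.0% and 5.25% in ApoE-/- 1, 2 and 3, against 15.6% to 15.8% in double mutants. A share does not depend on how libraries are scaled, but a rise in 1 gene lowers the shares of the others.

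Ctsl per kilobase was 0.736, 1.28 and 0.730 of Ctsb in ApoE-/- 1, 2 and 3 and 1.44, 1.38 and 1.47 of it in the double mutants. The groups were separate (two-sided exact permutation test, p = 0.1, the smallest that 3 against 3 can give, and 0.400 adjusted over the 4 ratios computed). Cystatin C per kilobase was 0.216, 0.327 and 1.14 of the summed 8 cysteine proteases in ApoE-/- 1, 2 and 3 and 0.237, 0.192 and 0.211 of it in the double mutants. ApoE-/- 1 lay within the double mutant range, ApoE-/- 2 above it, and only in ApoE-/- 3 did the inhibitor transcript exceed the proteases (two-sided exact permutation test, p = 0.200, adjusted 0.400). The ratios of Ctsk to Ctss and of Ctsc to Ctsh overlapped between the groups (two-sided exact permutation p = 0.900 and 0.400).

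**Figure D4:**
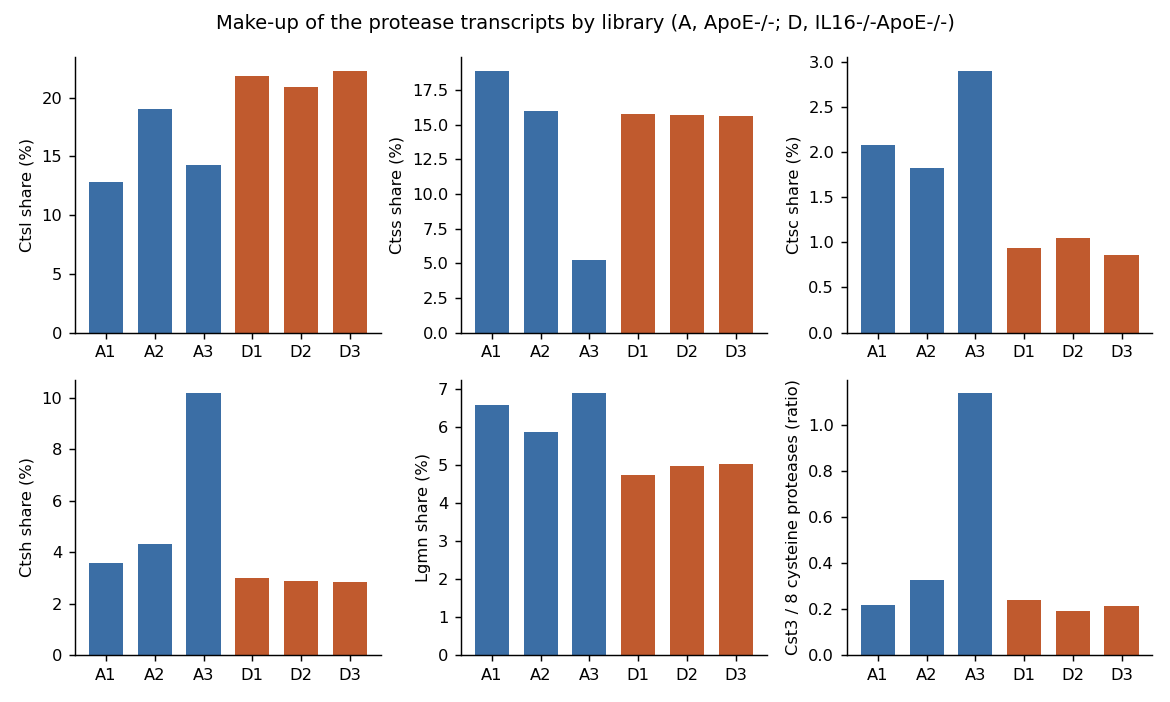
Share of Ctsl, Ctss, Ctsc, Ctsh and Lgmn in the summed per-kilobase level of 9 proteases (percent), and the ratio of Cst3 to the summed 8 cysteine proteases, in each ApoE-/- (A1 to A3) and double mutant (D1 to D3) library, each axis from 0. The share of Ctsl is 20.9% to 22.3% in the double mutants against 12.8% to 19.0%, and the Cst3 ratio stands out only in ApoE-/- 3 (1.14).

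Of 15 other cathepsins and related proteases, 6 were tested, 0 passed, and their median log2 fold change was -0.08. The placental cathepsins Ctsm, Ctsq, Ctsr, Cts3, Cts6, Cts7 and Cts8 had no count in any library. Napsa, the aspartic protease napsin A of lung and kidney, was at 15.7, 4.69 and 1.09 CPM in ApoE-/- 1, 2 and 3, while the double mutants held 32.6, 33.8 and 35.4 CPM. Its groups were separate (a log2 fold change of 2.24 with an SE of 0.84, n = 3 and 3, adjusted p = 0.280 in edgeR's quasi-likelihood test). Ctsa, the carboxypeptidase that protects lysosomal glycosidases, was at 336, 269.6 and 198 CPM in ApoE-/-, while the double mutants held 358, 404 and 357 CPM (0.48, SE 0.25, adjusted p = 0.401).

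Among cystatins and other cathepsin inhibitors, 12 of 26 were tested, 0 passed, and the median log2 fold change was 0.36. Cstb, the cystatin of the cytosol, was nearest to the threshold. It was at 38.7, 17.6 and 18.3 CPM in ApoE-/- 1, 2 and 3, while the double mutants held 83.2, 93.7 and 80.7 CPM, well apart (a log2 fold change of 1.79 with an SE of 0.33, n = 3 and 3, adjusted p = 0.0741 in edgeR's quasi-likelihood test). Over 15 alternatives its adjusted p ran from 9.18e-05 to 0.303, and it passed in 5 of them. Cst6, the secreted cystatin E/M that inhibits legumain, was at 0.199 to 0.402 CPM in ApoE-/-, while the double mutants held 1.02 to 2.12 CPM (a log2 fold change of 2.25 with an SE of 0.52, adjusted p = 0.115).

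In the rest of the lysosome the medians lay closer to that of all genes (-0.05). Of 34 other lysosomal hydrolases and their cofactors 0 passed, 28 had a positive log2 fold change, and the median was 0.17. Hexa, a lysosomal glycosidase, was at 281, 221 and 104 CPM in ApoE-/- 1, 2 and 3, while the double mutants held 322, 379 and 313 CPM (0.74, SE 0.37, adjusted p = 0.383). Of 18 genes of the lysosomal membrane and proton pump 0 passed, with a median of 0.16. The pump subunit Atp6v1e1 was at 67.0 to 114 CPM in ApoE-/-, while the double mutants held 118 to 133 CPM (0.49, SE 0.22, adjusted p = 0.348), and Atp6v0d1 at 56.4 to 74.8 CPM against 78.0 to 93.0 CPM (0.42, SE 0.17, adjusted p = 0.291).

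Genes that sort enzymes to the lysosome and the factors that drive lysosomal genes had medians near 0. Of 13 sorting genes 0 passed, with a median log2 fold change of 0.00. The mannose 6-phosphate receptor M6pr was at 136 to 174 CPM in ApoE-/-, while the double mutants held 167 to 192 CPM, and the receptor Sort1 at 135 to 144 CPM against 116 to 122 CPM (-0.23, SE 0.14, adjusted p = 0.468). Of the 4 MiT/TFE factors, which bind E-boxes of lysosomal genes, 0 passed and the median was 0.01. Tfeb was lower in every double mutant library (18.8 to 20.1 against 20.7 to 27.9 CPM, a log2 fold change of -0.32 with an SE of 0.16, adjusted p = 0.391), and Tfe3 was higher in every one (51.5 to 53.9 against 40.4 to 49.3 CPM, 0.20, SE 0.14, adjusted p = 0.501).

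Among MHC class II genes, whose invariant chain Ctss and Ctsl trim, 0 of 10 passed and the median log2 fold change was 0.04, or 1.20 without ApoE-/- 1 and -0.46 without ApoE-/- 3. Cd74, the invariant chain, was at 1424, 518 and 113 CPM in ApoE-/- 1, 2 and 3, while the double mutants held 767, 834 and 779.9 CPM, so the double mutants lay inside the ApoE-/- range. The leading members by p were H2-Ob (1.59, SE 0.45, adjusted p = 0.174) and H2-DMb2 (1.33, SE 0.76, adjusted p = 0.430). Of 9 matrix genes whose products cathepsins can cleave, 0 passed and the median was -0.14. Elastin (Eln) was at 1601, 3165 and 4113 CPM in ApoE-/- 1, 2 and 3, while the double mutants held 1785 to 2127 CPM (-0.62, SE 0.41, adjusted p = 0.485), and fibronectin (Fn1) at 2057 to 3719 CPM against 3744 to 4379 CPM (0.59, SE 0.35, adjusted p = 0.435). Without ApoE-/- 1, 5 inhibitors, 2 other cathepsins, 3 hydrolases, 3 membrane or pump genes and 2 MHC class II genes passed as higher, and 1 sorting gene, 1 hydrolase and 3 matrix genes passed as lower, in a fit that called 13.1% of all genes as higher and 12.8% as lower. Eln was among the last 3 (-0.92, adjusted p = 0.0181).

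**Figure D5:**
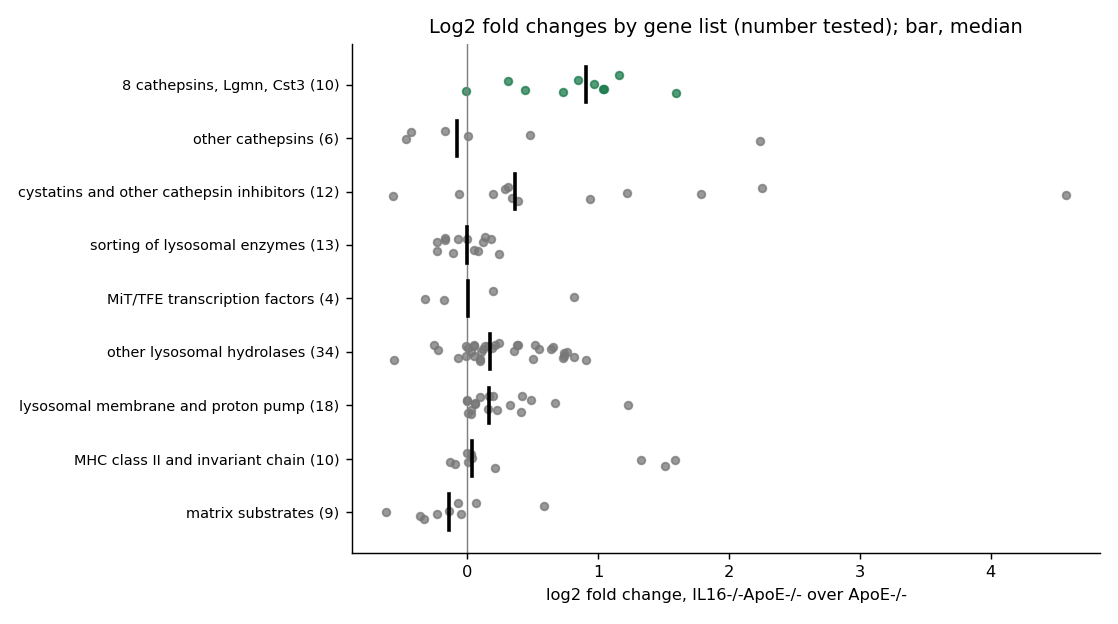
Log2 fold changes, double mutants over ApoE-/-, of the 10 genes (green) and of the tested genes of 8 related lists (grey, number tested in brackets), with the median of each as a bar. The median of the 10 is 0.91, and those of the other lists run from -0.14 (matrix substrates) to 0.36 (cystatins and other inhibitors); none of the genes shown passed the test over all genes.

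The genes most like each member across the 6 libraries were found by the root mean square difference of log2 CPM profiles after centring, among 9853 other tested genes with a mean of at least 10 CPM. Ctsb was followed most closely by the metalloreductase Steap4 (difference 0.04) and the urokinase receptor Plaur (0.07). Ctss was nearest to the myeloid receptors Pira2 (0.10) and Trem2 (0.17), the second of these a receptor of foamy macrophages. Ctsd was nearest to heme oxygenase Hmox1 and to Zmynd15 (0.12 each), Ctsk to Zmynd15 (0.07) and the repressor Bhlhe40 (0.09), and Ctsz to Renbp (0.06) and Eepd1 (0.08). Lgmn was nearest to the dipeptidase Cndp2 and the proton pump subunit Atp6v1b2 (0.07 each), and Ctsh to Ctsa and the endoplasmic reticulum lectin Os9 (0.06 each). Ctsc was nearest to the inflammatory caspase Casp1 and the carboxypeptidase-like Cpxm1 (0.12 each). Ctsl had no such close match, with Anxa8 (0.23) and Cdk18 (0.24) first, and Cst3 was nearest to Ergic3 and Erf (0.05 each). A gene that varies little is near many others by this measure, and the SD of a member's own profile ran from 0.17 (Cst3) to 1.53 (Ctss).

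Promoter sequences are shown for 4 of the 5 members that hold a match to a motif of factors known for lysosomal or myeloid genes. A link between these motifs and the levels in the libraries was not tested. RefSeq start sites (GRCm38.p6) were found for 8 of the 10 genes, 9 sites in all, each with 250 bases before and 50 after it. Both strands were searched for the E-box CACGTG, for TCACGTGA (the core of the CLEAR element bound by MiT/TFE factors, which contains the E-box), for the PU.1 site GAGGAAGT and for the AP-1 site TGANTCA. Of 32851 promoters of that length 7.15%, 0.974%, 3.20% and 7.81% hold them. Ctsd holds E-boxes at 245 and 98 bases before the start, the second within TCACGTGA. Ctsl holds an E-box 236 bases before the start, and Lgmn holds 1 at 49 bases before its second listed site (not shown). By the GENCODE positions, the Ctsl window, the second Lgmn window and the second Ctsd E-box lie inside the annotated gene. The Ctsl window reaches to 64370770 on chromosome 13, while the annotated gene reaches to 64370890. Bases before these start sites can therefore be part of a longer transcript. The 250 bases before the start are given 5′ to 3′ on the gene's strand, with matches in capitals.
Ctsd, chr7:142387828-142388077, minus strand: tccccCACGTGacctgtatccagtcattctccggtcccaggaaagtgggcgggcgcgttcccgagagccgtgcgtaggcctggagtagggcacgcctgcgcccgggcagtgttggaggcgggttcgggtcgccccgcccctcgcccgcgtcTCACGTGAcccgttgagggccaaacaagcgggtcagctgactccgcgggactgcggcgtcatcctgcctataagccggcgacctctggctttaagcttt
Ctsl, chr13:64370521-64370770, minus strand: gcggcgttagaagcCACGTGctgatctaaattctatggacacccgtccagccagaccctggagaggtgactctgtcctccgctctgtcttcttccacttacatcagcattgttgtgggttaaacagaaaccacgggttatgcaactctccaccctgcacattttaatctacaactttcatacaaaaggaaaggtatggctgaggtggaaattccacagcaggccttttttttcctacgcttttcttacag

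The PU.1 letters, on the opposite strand (ACTTCCTC), were found in Ctss, from 2 bases before to 6 bases after the start, and in Ctsc, 151 bases before it. They are shown in capitals within 30 bases of the gene's strand.
Ctss, chr3:95526773-95526802, plus strand: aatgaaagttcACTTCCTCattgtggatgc
Ctsc, chr7:88277923-88277952, plus strand: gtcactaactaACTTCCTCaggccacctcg

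Ctss was the protease with the widest range over the ApoE-/- libraries and Ctsc the protease with the fold change nearest 0. A link of either trait to the motif was not tested. Ctsk, Ctsz and Cst3 held none of the 4 motifs in this window, and no member held the AP-1 letters. A match describes these letters only.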

How the data were processed

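The authors deposited 1 table of raw read counts per Ensembl gene for 6 aorta samples, without normalization, as judged from whole numbers and unequal totals. Polyadenylated RNA was captured and strand-marked libraries were made, per the labels' protocols. Cutadapt, HISAT2 and StringTie are named per the submitters' processing notes, and build, counting program and strandedness of counting were not given in the sources used here. Where strand was ignored, reads of the opposite-strand neighbours Fdft1 (Ctsb, 23.7 to 69.1 CPM) and Nelfcd (Ctsz, 21.7 to 32.9 CPM) could be counted with these genes.

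Symbols and positions come from GENCODE M21 (GRCm38), which matched 55141 of 55401 IDs. Transcript length is the median over basic transcripts of the best support level. Genes were kept by filterByExpr (minimum count 10), scaled by TMM and compared with edgeR's quasi-likelihood test (two-sided, robust, no covariate, Benjamini-Hochberg over 19833 genes, threshold 0.05). The SE is the log2 fold change over the square root of F. Versions were R 4.3.3, edgeR 4.0.16, limma 3.58.1, DESeq2 1.42.0 and matplotlib 3.10.9. The code was tested on simulated data with the same spread in both groups, unlike these libraries, so that check does not cover groups of unequal spread.

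The members, gene lists and motifs were chosen with earlier results of these data known. Named are the 10 members, Il16, from each list up to 4 genes past the threshold (or the 2 with the smallest p), and the 2 genes most like each member. 1 gene that the rule names is not reported here. Other genes are named outside this rule. Of these, single macrophage markers, Cd74 and the untested cathepsins were named after their values were seen. The rule also does not name Ctsw, single markers of other cell types, Apoe, Xist, Ddx3y, Fdft1 and Nelfcd. The alternatives changed the scaling (upper-quartile, RLE, or totals alone), the filter (none, or 1 CPM in 3 or more libraries), the tool (DESeq2, limma-voom, limma-voom with sample weights) or the samples (each library left out), or added a replicate block. The alternatives for the shares and for the macrophage sum were chosen after the data were seen.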

Additional observations from a re-analysis of the deposited data

How the results depend on the processing

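Genes called as higher and lower were 226 and 12 with all libraries in edgeR, 1235 and 462 in DESeq2, 386 and 23 in limma-voom, 1863 and 1488 in limma-voom with sample weights, and 0 and 0 with the replicate block (2327 genes at an unadjusted p under 0.05). Leaving out 1 library gave 0 to 2651 higher and 0 to 2580 lower: 2651 and 2580 without ApoE-/- 1, 101 and 7 without ApoE-/- 2, 163 and 19 without ApoE-/- 3, and none without any 1 double mutant library (1920 to 2042 genes at an unadjusted p under 0.05). Of the 10 members 0 passed with all libraries in edgeR, 1 (Ctsl) in DESeq2, 5 (Ctsb, Ctsd, Ctsk, Ctsl and Ctsz) in limma-voom with sample weights, and 0 in limma-voom. In the same order, these fits called 1.14%, 6.23%, 9.39% and 1.95% of all tested genes as higher. Leaving out 1 library gave 0 to 3, the 3 (Ctsb, Ctsk and Ctsz) without ApoE-/- 1, where 13.1% of all genes passed as higher. No member passed as lower in any fit. Ctsc (-0.01, and -0.35 to 0.44 with 1 library left out, the lowest without ApoE-/- 3) changed sign, to 0.02 with upper-quartile factors, 0.01 with at least 1 CPM in 3 libraries, 0.12 in limma-voom, 0.08 with sample weights, 0.13 with the replicate block, and to between 0.06 and 0.44 without ApoE-/- 1 (0.44), double mutant 1 (0.06) or double mutant 3 (0.09). The other 9 members kept a positive log2 fold change under all 15 alternatives. The cause of these changes was not tested. Nothing in the labels says that the numbers 1 to 3 pair the samples. Correlations of same-numbered libraries were -0.0400, -0.0271 and -0.00950 after group means were removed. Those of other pairs ran from -0.0746 to 0.0898, and so few libraries cannot settle whether a pairing exists. With the block no member passed, as in the main fit, and no other gene passed either. Without the length correction the groups remained separate in the same direction for the shares of Ctsl, Ctsc, Ctsh and Lgmn.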

Other observations

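Osteoclast genes were looked at beside Ctsk. The summed level of Ocstamp, Dcstamp, Calcr and Acp5 was 180.3, 44.2 and 16.6 CPM in ApoE-/- 1, 2 and 3 against 129 to 163 CPM in double mutants, nearly all of it from Acp5, the tartrate-resistant phosphatase that macrophages also make (178, 43.6 and 16.5 CPM against 129 to 162 CPM). None of the 3 tested members passed. The cytotoxic cell cathepsin Ctsw was at 7.59, 2.15 and 0.870 CPM in ApoE-/- while the double mutants held 2.06 to 3.36 CPM (a log2 fold change of -0.43 with an SE of 0.76, adjusted p = 0.799 in edgeR's quasi-likelihood test). Ctsg, the neutrophil and mast cell protease, was at 0 in 4 of the 6 libraries and at most 0.316 CPM. Summed mast cell markers followed the order of the macrophage markers in ApoE-/-, at 78.9, 35.4 and 4.65 CPM, while the double mutants held 58.0 to 81.0 CPM.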
